A study of Homo sapiens with 6 samples.

Results

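Occupancy of full-length ZNF469, a zinc finger protein, was described at 10 collagen genes that form or decorate networks and fibrils and are not themselves the major fibrillar chains. They were COL8A1 (a network-forming short chain), COL12A1, COL14A1, COL16A1 and COL21A1 (FACIT chains), COL15A1 and COL18A1 (multiplexins), and COL6A1, COL6A2 and COL6A3 (the chains of type VI beaded filaments). Each locus was the gene body, from its first to its last annotated base in hg38, plus 20 kb on either side, and a region belonged to a locus when it overlapped by at least 1 bp. By this rule 34 of 19108 full-length regions and 0 of 54 regions of the deletion construct lay in the 10 loci, out of 20007 protein-coding genes. The genes were chosen on the number of full-length regions in them, COL8A1, COL12A1 and COL15A1 for having many and the type VI genes for having none. The contrast between those sets is therefore a description, and no test of it was made.

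The collagens outside the fibrillar chains organise the matrix that fibrils are laid into. FACIT collagens (fibril-associated collagens with interrupted triple helices) sit on the surface of fibrils, type VIII collagen assembles into open networks made by vessel wall and other mesenchymal cells, and multiplexins lie at basement membrane zones, where the end of the type XVIII chain can be cut off as endostatin. Type VI collagen forms beaded microfilaments that link cells to the surrounding matrix and occurs in the fibrous septa of the liver. In fibrotic liver most interstitial collagen is made by activated hepatic stellate cells.

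The measurement was CUT&RUN, in which a nuclease tethered to an antibody releases the chromatin fragments around the antibody's target, and the antibody was raised against ZNF469. The cells were LX2 (LX-2), an immortalized human hepatic stellate line grown with 2-Phospho-L-ascorbic acid. All 6 libraries came from cells that held a piggyBac transgene induced with 1 ug/mL doxycycline for 24 h, 3 with full-length ZNF469 and 3 with dZF, from which most of the zinc fingers had been deleted. There were no uninduced libraries and none from cells without a transgene among those used here. Both transgenes carried an HA tag, and by the study's map of the protein the antibody's antigen lies outside the deleted stretch. Each construct was in its own stable line with its own clone name, and the labels do not say what the clone was, so construct and line cannot be told apart. The endogenous gene was present in both groups. The series text names puromycin as the selecting drug and the study's methods name Geneticin. A peak list holds no expression values, so the stellate identity of the line could not be checked against its markers.

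The 3 libraries of a group had been pooled into 1 list of regions by the authors, so that no value per library, no SD and no test between groups could be given. The pileup of a region is the number of fragments over its summit, its local background is the number that the peak caller expected there, and the fold is (pileup + 1)/(background + 1). A whole-number pileup accounted for both deposited values, fold and −log10 p, in 100% of records of each list. Over the full-length list the pileup had a median of 20 fragments (quartiles 16 and 27), the local background a median of 1.82, the fold a median of 7.36 and the width a median of 440 bp. The 95% limits printed beside pileups are exact Poisson limits and those for shares are Wilson intervals. Both cover counting error only, since PCR copies and the difference between libraries are not in them.

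Stretches that reach 50 bp to each side of a summit, the base with the most fragments, are shown for the region with the highest pileup in 5 of the genes that held one in the body (COL8A1, COL12A1, COL16A1, COL18A1 and COL21A1), so that the sequence under the signal can be read beside its values. They are hg38, plus strand, 5′ to 3′. Capitals mark the letters TGANTCA, the core recognised by AP-1 (the FOS and JUN dimer), where they occurred in the stretch. Where they did not occur, the 1 capital marks the summit base.
COL8A1 intron 1, chr3:99659096-99659196: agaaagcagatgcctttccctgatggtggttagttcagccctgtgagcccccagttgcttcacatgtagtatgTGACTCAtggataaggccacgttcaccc
COL12A1 intron 2, chr6:75196428-75196528: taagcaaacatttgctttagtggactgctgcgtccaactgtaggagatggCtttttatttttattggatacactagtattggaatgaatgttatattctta
COL16A1 intron 22, chr1:31690077-31690177: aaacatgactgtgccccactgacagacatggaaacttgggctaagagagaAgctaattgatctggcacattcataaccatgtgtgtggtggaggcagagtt
COL18A1 intron 2, chr21:45460686-45460786: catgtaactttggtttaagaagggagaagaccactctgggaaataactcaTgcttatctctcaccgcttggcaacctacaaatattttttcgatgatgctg
COL21A1 gene body, chr6:56335103-56335203: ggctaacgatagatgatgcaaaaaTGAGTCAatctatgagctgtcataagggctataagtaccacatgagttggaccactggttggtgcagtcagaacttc

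Of these 5, the COL8A1 and COL21A1 stretches held the AP-1 letters within 50 bp of the summit. In COL8A1 the centre of the match was 26 bp to the plus-strand side of the summit and in COL21A1 it was 23 bp to the other side. The COL12A1 stretch was AT-rich, with a GC content of 33.7%, and the COL8A1 stretch was the richest in GC of the 5, at 51.5%. COL14A1 held no region.

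A full-length region lay in the body of 6 of the 10 genes, where 33.7% of all protein-coding genes had one. With the flanks, 7 of the 10 had one against 52% of all genes, and 3 of the 10 (COL8A1, COL12A1 and COL16A1) had one within 3 kb of their outermost annotated start against 21.1% of all genes. These counts were known when the genes were chosen and nothing is read from them. Of the 34 regions, 28 lay in gene bodies and 6 in flanks. Full-length regions covered 1.02% of the summed length of the 10 genes, compared with 0.371% over all protein-coding genes and 0.621% over the other 34 collagen chains. The 10 genes held 2.04 regions per 100 kb of body, against 0.911 over protein-coding bodies and 0.619 over the genome.

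For description, and with their counts known, the genes were sorted into 3 kinds by density. COL8A1, COL12A1, COL15A1 and COL16A1 held between 4.92 and 5.76 regions per 100 kb, COL18A1 and COL21A1 held 0.921 and 0.889, close to the average of protein-coding genes, and COL14A1, COL6A1, COL6A2 and COL6A3 held 0. Counting error was wide for single genes. The 95% limits were 2.15 to 9.81 per 100 kb for COL8A1, 1.81 to 10.7 for COL12A1, 2.21 to 11.3 for COL15A1 and 1.19 to 16.8 for COL16A1, so that the order of these 4 genes could not be told. The limits of COL18A1 (0.0233 to 5.13) and COL21A1 (0.183 to 2.60) overlapped those of all 4. A count of 0 allows up to 12.9 per 100 kb in COL6A1 and 8.64 in COL6A2. The 3 kinds were therefore not separated gene by gene.

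**Figure D1:**
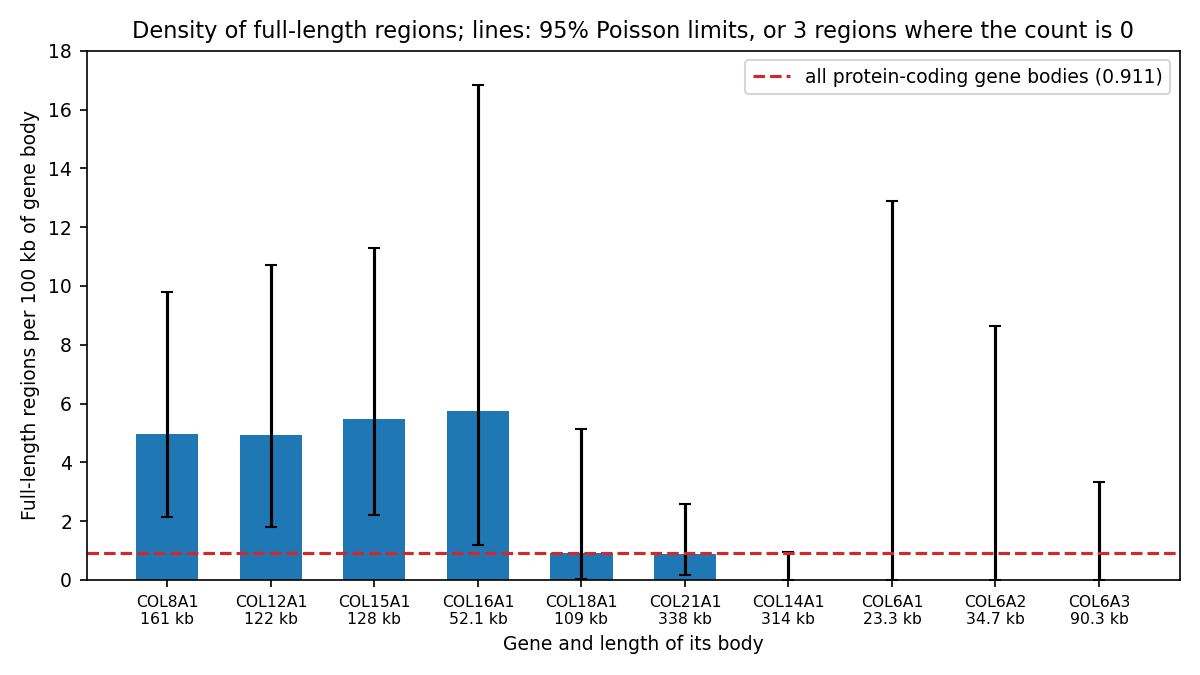
Full-length regions per 100 kb of gene body (y axis) for the 10 genes (x axis, with the length of each body). Bars are the densities, black lines are 95% Poisson limits of counts above 0, and the dashed line is the density over all protein-coding gene bodies, 0.911. COL8A1, COL12A1, COL15A1 and COL16A1 have the tallest bars, COL18A1 and COL21A1 sit near the line, and for the 4 genes at 0 the black line reaches the limit that a count of 0 allows (3 regions), 0.956 to 12.9 per 100 kb.

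COL8A1 encodes the alpha 1 chain of type VIII collagen. The gene (ENSG00000144810.16, chr3:99638475-99799226, plus strand, 160.8 kb) held 8 regions in its body and 2 upstream of it. All 8 body summits were intronic, 5 of them in intron 1 and 3 in intron 2, and none of the 8 regions overlapped an exon of the 4-exon canonical transcript. They were spread over 135 kb, with gaps of 3.07 to 43.2 kb between neighbours, and covered 1.80% of the gene.

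The COL8A1 region with both the highest pileup and the highest fold was in intron 1, at chr3:99659023-99659449, 20.7 kb inside the gene. It had 38 fragments (26.9 to 52.2) above a background of 1.95, for a fold of 13.2, higher than 98.8% of full-length regions and the highest fold of the 34. Within 100 bp of its summit there were 2 AP-1 matches, and the printed stretch holds the nearer. The region closest to the gene start lay upstream of it, at chr3:99637203-99637815, 1.05 kb before the outermost start and within a lncRNA gene (ENSG00000244464). It had 32 fragments (21.9 to 45.2), but above a background of 4.75, so that its fold was 5.74, higher than only 14.6% of the list. The other COL8A1 regions had 17 to 26 fragments and folds of 4.94 to 9.07. Their Poisson limits overlapped those of the strongest region for all of them. For the 4 regions at 17 fragments the overlap was narrow, an upper limit of 27.2 against a lower limit of 26.9. Such an overlap does not show that the pileups were alike.

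COL12A1 encodes the chain of type XII collagen, a FACIT that coats type I fibrils. The gene (ENSG00000111799.22, chr6:75084326-75206267, minus strand, 121.9 kb, 66 exons) held 6 regions in its body and 1 upstream, and these included the 3 highest pileups of the 34 regions. The pileups of the body regions were, from the start of the gene to its end, 72, 77, 24, 17, 52 and 37 fragments. The 2 regions nearest each end of the gene were thus high. The 2 between them in order, 22.9 and 75.3 kb inside the gene, were near the median of the list.

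The highest pileup of the 34 regions was in COL12A1 intron 2, at chr6:75195933-75196891, 9.79 kb inside the gene. It had 77 fragments (60.8 to 96.2) above a background of 7.0, more than 99.7% of full-length regions, and its fold was 9.75. It was also the widest of the 34, at 959 bp. The highest fold in COL12A1, and the region nearest to its start, was the one over the start itself, at chr6:75205946-75206425. There 72 fragments (56.3 to 90.7) lay above a background of 6.06, for a fold of 10.3. Its limits overlapped those of the intron 2 region, and the 2 pileups could not be told apart. At the other end of the gene, a region at chr6:75101845-75102612 overlapped exons 56 and 57 and held 52 fragments (38.8 to 68.2) at a fold of 6.88. It lay 0.226 kb from the start of a short annotated COL12A1 transcript. The neighbouring region in intron 58 had 37 fragments (26.1 to 51) above a background of 6.03. The regions over exon 36 and exon 10 had 17 and 24 fragments.

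RefSeq promoter entries were found for 7 of the genes (COL12A1, COL15A1, COL16A1, COL18A1, COL21A1, COL6A2 and COL6A3), 10 entries in all, and a full-length region overlapped only that of COL12A1. The 250 bases before its RefSeq start are printed because the summit lay within them, 52 bases before the start of the canonical transcript. The sequence is from RefSeq (GRCh38.p14), minus strand, 5′ to 3′, with the GC box letters GGGCGG or their complement in capitals.
COL12A1 promoter, chr6:75206054-75206303: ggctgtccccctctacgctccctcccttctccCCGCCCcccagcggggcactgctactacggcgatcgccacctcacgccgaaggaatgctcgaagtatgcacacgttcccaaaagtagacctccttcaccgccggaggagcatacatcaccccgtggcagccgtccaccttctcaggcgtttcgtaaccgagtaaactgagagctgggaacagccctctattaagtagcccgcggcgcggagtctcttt

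This stretch had a GC content of 61.2% with 21 CpG dinucleotides and held 1 GC box and the TEAD core letters once. None of the 10 promoter entries held the AP-1 letters, against 7.71% of all 35116 entries, and 7 of the 10 held a GC box, against 45.0%. The letters CCAAT were in 0 of the 10, against 34.6%, and the ETS letters AGGAAG in 2, against 33.6%. The entries are few and some belong to the same gene, so nothing is read from these shares.

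COL16A1 encodes the chain of type XVI collagen, a minor FACIT of fibrillar and microfibrillar matrix. The gene (ENSG00000084636.18, chr1:31652263-31704319, minus strand, 52.1 kb, 71 exons) held 3 regions, all in the part of the gene nearest its start. They lay 2.93, 11.7 and 14.2 kb inside it with 26, 26 and 34 fragments, and folds of 6.81, 6.02 and 7.79. The tallest, at chr1:31689773-31690293, had its summit in intron 22 (34 fragments, limits 23.5 to 47.5, background 3.49), overlapped exon 23 and lay 0.159 kb from the start of another COL16A1 transcript. The one closest to the gene start was in intron 2, at chr1:31701046-31701667. The 3 pileups differed by less than counting error. The nearest full-length region outside the gene was 78.1 kb beyond its end.

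COL21A1, the type XXI FACIT chain, is a gene of 337.5 kb (ENSG00000124749.18, chr6:56056590-56394094, minus strand). It held 3 regions, all in the stretch between its outermost start and the start of its 191-kb canonical transcript, so that none lay between exons of that transcript. The tallest was at chr6:56335010-56335316, 58.9 kb from the outermost start, with 21 fragments (13 to 32.1) and the highest fold of the 3, 7.79. A second region, 0.504 kb away, had 18 fragments, and the region nearest the start, at chr6:56364884-56365571, had 17. Each of these 3 windows held the AP-1 letters, with match centres 23, 14 and 53 bp from the summits.

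COL14A1, which encodes the type XIV FACIT chain of fibril surfaces, held no region in its 313.8 kb (ENSG00000187955.13, chr8:120059780-120373573, plus strand) or within 100 kb of it. The nearest was 186 kb upstream, in DEPTOR, with 17 fragments and a fold of 9.34. A count of 0 allows up to 3 regions, a one-sided limit, or 0.956 per 100 kb of this gene. Absence from the list says that no record passed the authors' filters, not that no fragment was there.

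COL15A1 encodes type XV collagen, a multiplexin that bridges basement membranes and fibrils. The gene (ENSG00000204291.11, chr9:98943179-99070792, plus strand, 127.6 kb, 42 exons) held 7 regions in its body, every one with an intronic summit, and 1 region 4.51 kb beyond its end. From the start to the end of the gene the 7 pileups were 18, 27, 17, 27, 22, 21 and 32 fragments, in introns 2, 5, 9, 11, 22, 23 and 35. The pileups thus varied less than in COL12A1, and the limits of all 7 overlapped. None was within 40 kb of the outermost gene start, but those in introns 22 and 23 lay 1.345 and 2.792 kb from another annotated COL15A1 start. The first of the 7, at chr9:98983373-98983919, lay 40.4 kb inside the gene with a fold of 6.99. The tallest, at chr9:99057083-99057578 in intron 35, had 32 fragments (21.9 to 45.2) above a background of 3.44, for a fold of 7.43. The highest fold was 9.12, in intron 5 at chr9:98989284-98990083, with 27 fragments (17.8 to 39.3). COL15A1 had the largest share of its length covered of the 10 genes, 3.25%, against 2.91% in COL12A1 and 2.97% in COL16A1. The region beyond the end had 23 fragments and lay 28.3 kb from the start of TGFBR1, a receptor of TGF-beta.

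COL18A1, the other multiplexin and the source of endostatin, held 1 region in 108.6 kb (ENSG00000182871.16, chr21:45405165-45513720, plus strand). It was in intron 2, at chr21:45460659-45461139, 55.6 kb inside the gene and 5.205 kb from another annotated COL18A1 start. It had 12 fragments (6.20 to 21) above a background of 0.865, the floor of the full-length list, for a fold of 6.97. With COL12A1's upstream region it was the shallowest of the 34. Its fold was close to the 6.99 of the COL15A1 region with 18 fragments, whose background was 1.72.

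The type VI genes held no region in their bodies. COL6A1 (ENSG00000142156.16, chr21:45981770-46005050, plus strand, 23.3 kb) and COL6A2 (ENSG00000142173.17, chr21:46098112-46132848, plus strand, 34.7 kb) lie side by side and also had none in their flanks. The nearest region to COL6A1 was 44.4 kb beyond its end, at chr21:46049466-46049862, with 12 fragments (6.20 to 21) and a fold of 6.31. The nearest to COL6A2 was 37.0 kb before its start, at chr21:46060722-46061122, with 19 fragments (11.4 to 29.7) and a fold of 9.95. Both lay in the interval between the genes. From the start of COL18A1 to the end of COL6A2, a stretch of 727.7 kb that takes in 3 of the 10 genes, there were 4 full-length regions, or 0.550 per 100 kb.

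COL6A3 (ENSG00000163359.17, chr2:237324003-237414328, minus strand, 90.3 kb), which encodes the longest of these 3 chains, differed from the other two in its surroundings. It had a region on each side, 1 at chr2:237432630-237433277, 18.3 kb upstream and within a lncRNA gene (ENSG00000222032), with 30 fragments (20.2 to 42.8) and a fold of 6.81. The other, at chr2:237304790-237305162, was 18.8 kb beyond the gene end, with 26 fragments (17.0 to 38.1) and a fold of 6.20. In all, 9 full-length regions lay in or within 100 kb of COL6A3, as many as for COL15A1, compared with 2 each for COL6A1 and COL6A2. Both of its flank regions held the AP-1 letters. These 2 were the members nearest to the 20-kb limit, and the next region outside it was also at COL6A3, 23.7 kb away, with 25 fragments and a fold of 6.86.

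Set side by side, COL8A1, COL12A1 and COL15A1 held 21 regions in 410.3 kb, or 5.12 per 100 kb (95% limits 3.17 to 7.82), and the type VI genes 0 in 148.3 kb. These counts follow from the choice of the genes, and the limits are given for counting error alone. By the same one-sided limit of 3 regions, a count of 0 allows 2.02 per 100 kb over the type VI genes together, and 12.9 in COL6A1, 8.64 in COL6A2 and 3.32 in COL6A3 taken singly. The many-region genes had 2.58% of their length covered, the type VI genes 0%.

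Longer genes hold a region more often, so the share with at least 1 full-length region was taken among the other protein-coding genes of like length, from 0.8 times a gene's length up to the inverse of that factor. The share was 59.3% for genes about as long as COL8A1, 53.8% for COL12A1, 55.2% for COL15A1 and 37.3% for COL16A1. It was 52.2% for COL18A1, 69.2% for COL21A1 and 67.4% for COL14A1. For the type VI genes it was 28.7% (COL6A1), 34.2% (COL6A2) and 48.4% (COL6A3), so that most genes as long as each of these also held none. As the genes were chosen on their counts, the ranks of the counts among genes of like length are not reported and nothing is read from them.

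**Figure D2:**
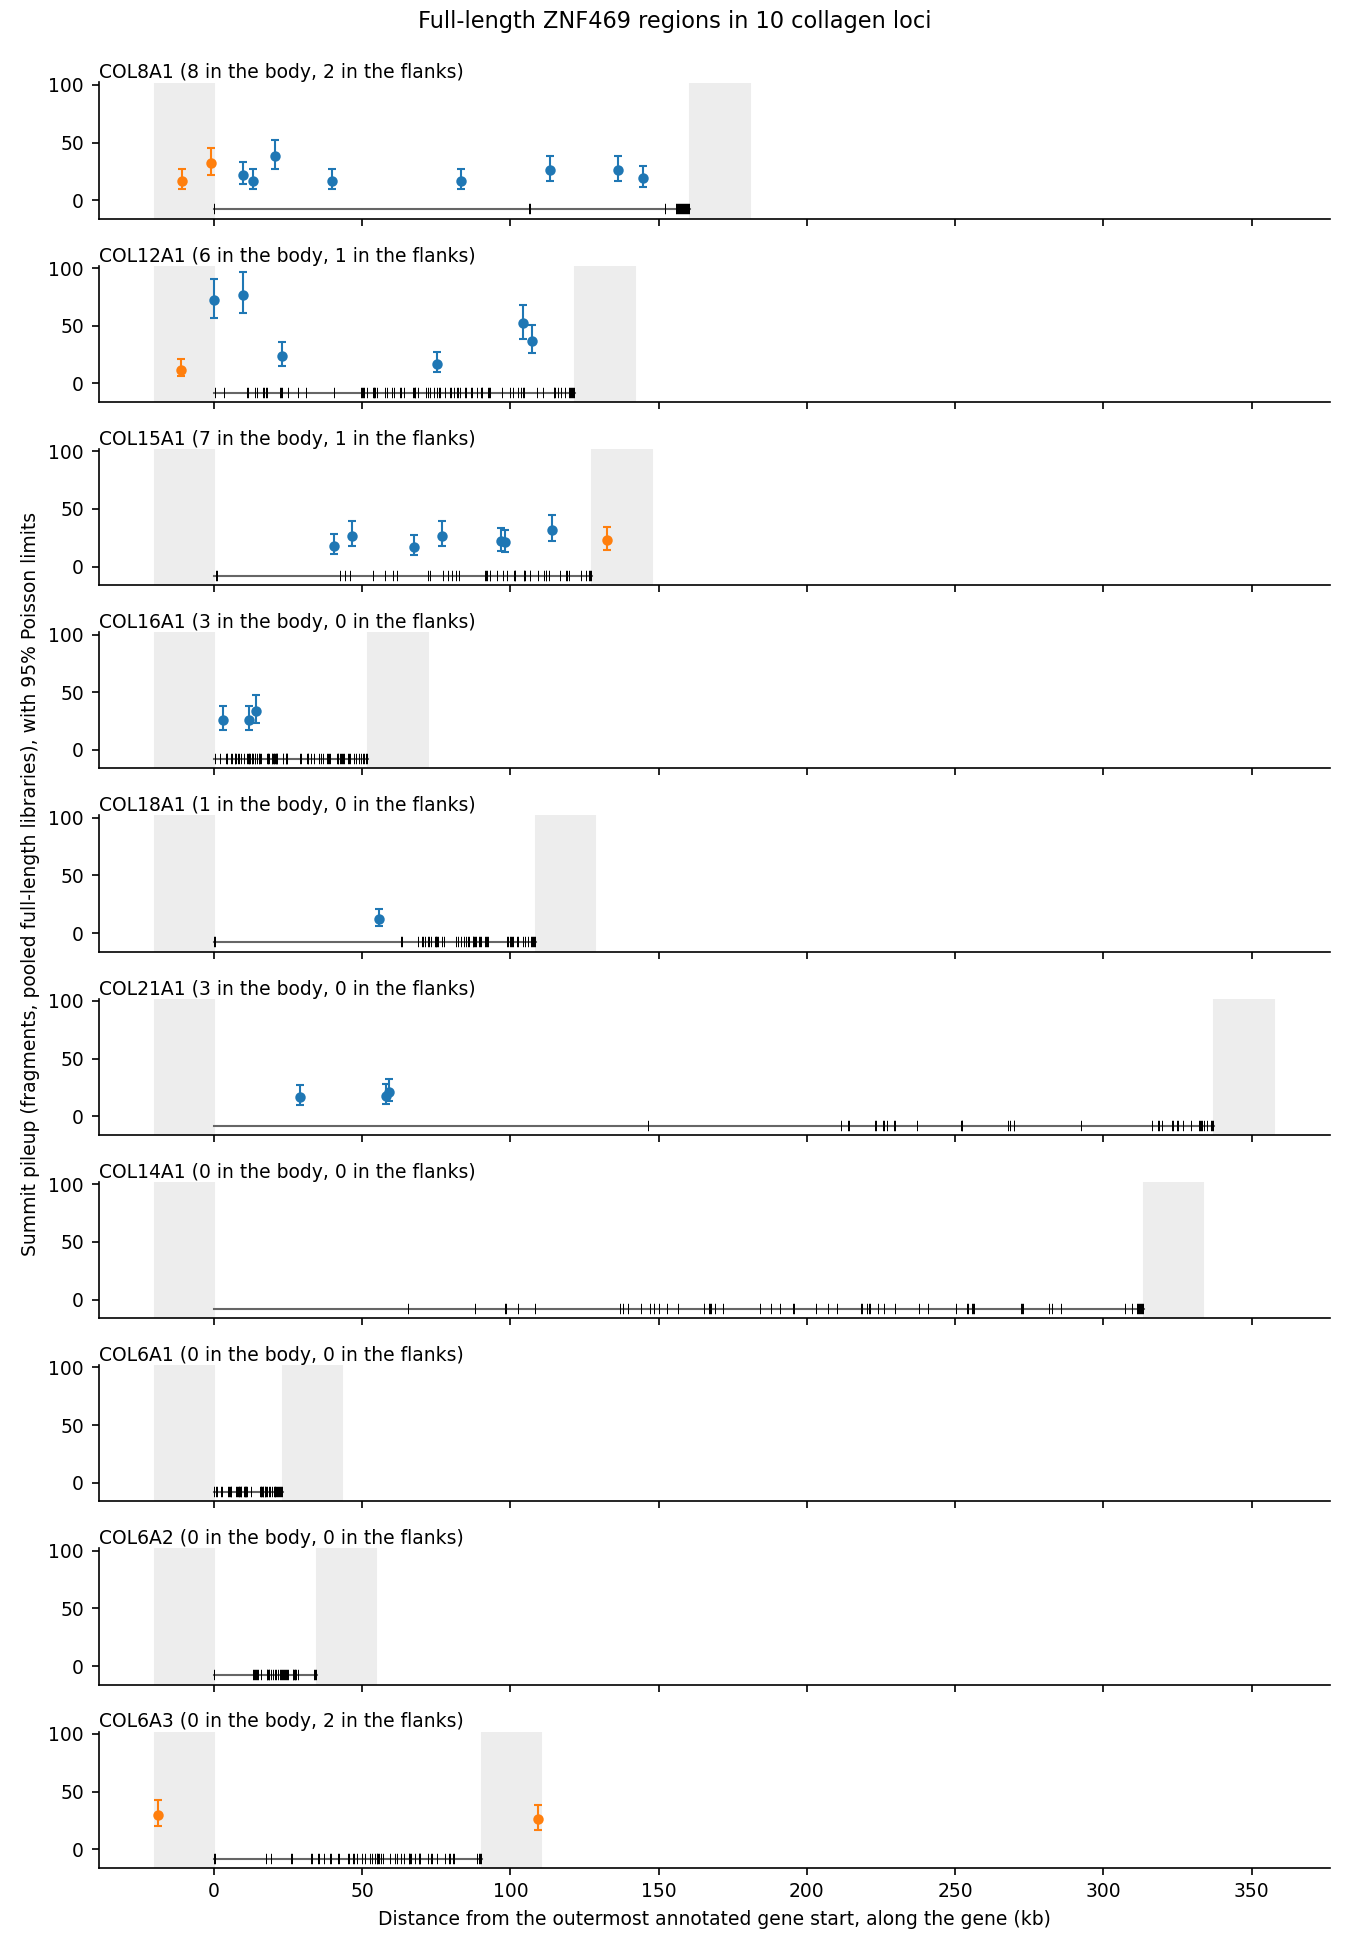
Each panel is 1 of the 10 genes, with the distance from its outermost annotated start along the direction of the gene in kb (x axis) and the summit pileup in fragments of the pooled full-length libraries (y axis). Blue points are regions in the gene body, orange points regions in the 20-kb flanks (grey), lines are 95% Poisson limits, and black ticks below are the exons of the canonical transcript. COL8A1 carries points along most of its length, COL12A1 on both sides of a gap of 51.7 kb, and COL15A1 only from 40.4 kb on. COL16A1 has points only near its start, and the 3 type VI panels have no blue point.

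The 34 regions had a somewhat higher median pileup than the list and a somewhat lower median fold, within counting error. Their pileups ran from 12 to 77 with a median of 23.5, against 20 in the list, and of 22 with COL12A1 left out. Above the list's median pileup were 22 of 34 (64.7%, 47.9% to 78.5%). Their folds ran from 4.94 to 13.2 with a median of 6.84, against 7.36. Above the list's median fold were 13 of 34 (38.2%, 23.9% to 55.0%), and both intervals held an even split. The local background, by which the pileup is divided, had a median of 2.47, against 1.82 in the list. It was above the list's median in 28 of the 34 (82.4%, 66.5% to 91.7%), an interval that did not hold an even split. By fold 5 regions were in the upper 25% of the list and 1, the COL8A1 intron 1 region, among the 1000 highest. By pileup 11 were in the upper 25%, and 3, all in COL12A1, were among the 1000 highest. The highest IDR score, 1000, was held by 13 of the 34 (38.2%), against 33.0% in the list. IDR, the irreproducible discovery rate, ranks peaks by their agreement between replicates.

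Among the 10 genes COL12A1 stood apart in background. The background was 6.03 to 7.0 in 4 of its 6 body regions and 2.43 and 2.81 in the other 2, and it was at most 3.49 in the body regions of COL8A1, COL15A1, COL16A1, COL18A1 and COL21A1. The highest pileups of COL12A1 thus came with high local backgrounds. How far a region's own fragments raise its local background was not tested, so the background is not a separate measure of the surroundings. Its folds, at 5.25 to 10.3, spanned much the same range as those of COL15A1, at 5.02 to 9.12. Among the fibrillar genes the backgrounds varied too. COL5A1 and COL1A2 had median backgrounds of 3.08 and 3.99 over 5 and 1 body regions, below those 4 COL12A1 regions. The 16 body regions of COL5A2 had backgrounds of 3.75 to 11.0 with a median of 5.98, a range that took in those 4 regions. COL1A1 and COL3A1 had higher backgrounds. The 8 regions of COL1A1 had 79 to 138 fragments over backgrounds of 21.3 to 44 and folds of 2.35 to 4.45, and the 6 regions of COL3A1 had 68 to 277 fragments above backgrounds of 14.7 to 31.9. The COL12A1 regions at 72 and 77 fragments were within the range of the COL3A1 pileups, but over lower backgrounds, while no region of the other 9 loci exceeded 38.

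**Figure D3:**
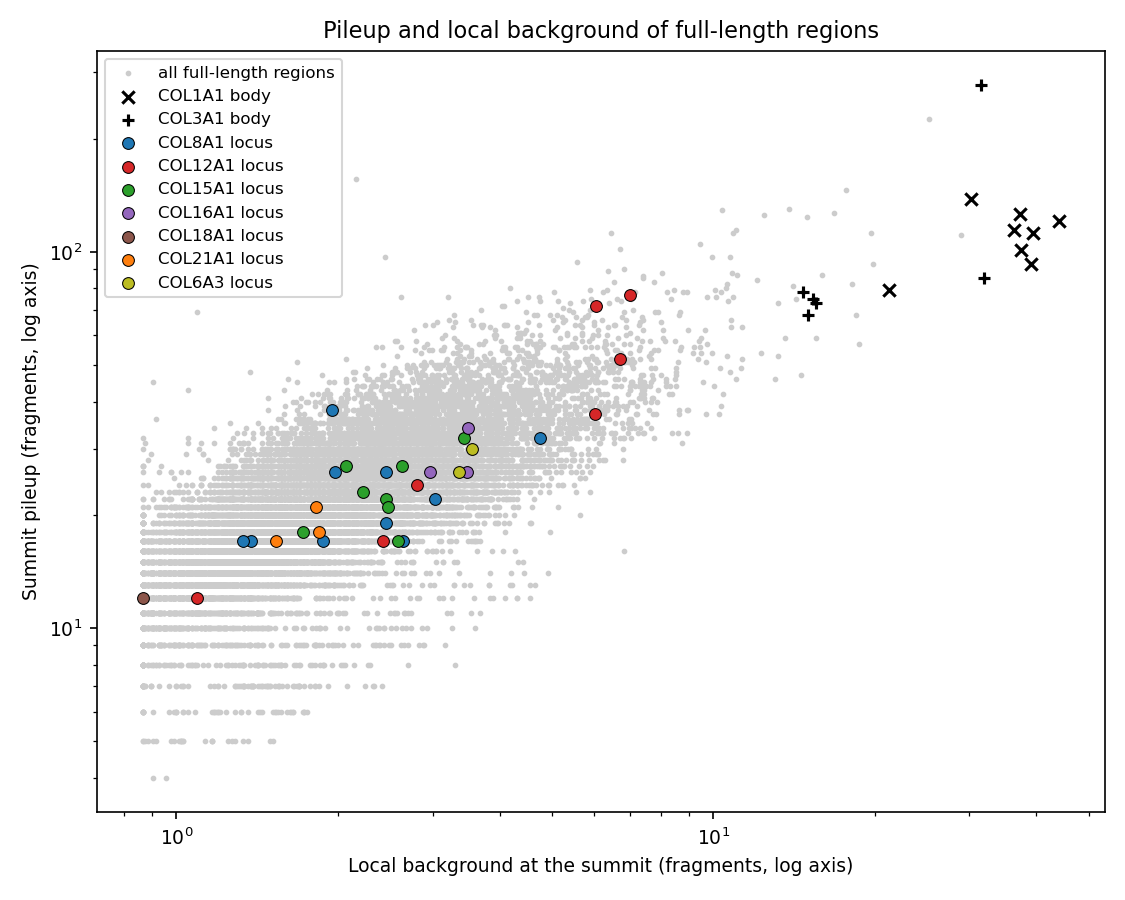
Summit pileup (y axis, fragments, log scale) against local background (x axis, fragments, log scale) for all 19108 full-length regions (grey points) and the 34 regions of the collagen loci (coloured by gene), with the body regions of COL1A1 (crosses) and COL3A1 (plus signs) for comparison. The collagen loci lie within the grey cloud, 4 COL12A1 regions have backgrounds above 6, the COL8A1 region at 38 fragments stands at the upper edge for its background of 1.95, and COL1A1 has the highest backgrounds, up to 44.

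Within gene bodies the regions were mostly intronic. Of the 28 body summits 22 were in an intron of the canonical transcript (78.6%, 60.5% to 89.8%), 2 were in an exon, both in COL12A1, and 4 were outside that transcript. There were thus 2 exonic summits of 24 inside a canonical transcript, where exons made up 5.84% of the length. Coding sequence was overlapped by 5 of the 28 regions, 3 in COL12A1 and 2 in COL16A1.

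Few of the regions were at the outermost gene starts. Within 3 kb of the outermost start there were 3 of 34 summits (8.82%, 3.05% to 23%). Within 3 kb of any annotated start of the same gene there were 9 of 34 (26.5%, 14.6% to 43.1%). Within 3 kb of any annotated start, lncRNA starts included, there were 10 of 34 (29.4%, 16.8% to 46.2%). Over the whole list 7295 of 19108 summits (38.2%) were that close to a start, a share inside the interval of the collagen loci. COL12A1 was the only one of the 10 genes with a region over its outermost start. The COL15A1, COL18A1 and COL21A1 bodies began with 40.4, 55.6 and 28.9 kb without a summit.

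The letters of 9 short recognition cores were searched on both strands in windows that reached 100 bp to each side of a summit, and in windows of the same length centred 1 kb away on each side. The cores were AP-1 (TGANTCA), CRE (TGACGTCA), TEAD (GGAATG), RUNX (TGTGGT), the E-box in the form CAGATG and in the form CAGCTG, the GC box (GGGCGG), ETS (AGGAAG) and the CCAAT box. A match is a description of the sequence and not a measured site, and matches of different cores may overlap. AP-1 letters were in 15 of the 34 windows (44.1%, 28.9% to 60.5%), against 42.0% over all full-length regions, a share inside that interval. They were in 0 of the 68 windows to the sides (at most 5.35%), against 6.21% over the sides of all regions.

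The share was uneven between the genes, over small numbers. AP-1 letters were in 6 of 10 windows in COL8A1, 2 of 7 in COL12A1, 2 of 8 in COL15A1, 0 of 3 in COL16A1, 0 of 1 in COL18A1, 3 of 3 in COL21A1 and 2 of 2 in COL6A3. Intervals were wide, at 31.3% to 83.2% in COL8A1 and 7.15% to 59.1% in COL15A1, and overlapped. Among the 15 windows the nearest match lay a median of 26 bp from the summit, against 37 bp in the list, and 7 were within 25 bp (46.7%, against 36.1%). No interval was computed for these values, and over 15 windows nothing is read from the difference. In 3 regions the match was within 10 bp of the summit. They are printed with 20 bp to each side of the summit (hg38, plus strand, 5′ to 3′, AP-1 letters in capitals) and were singled out after their positions had been seen.
COL8A1 intron 2, chr3:99774725-99774765: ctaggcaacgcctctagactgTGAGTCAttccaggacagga
COL12A1 intron 58, chr6:75098971-75099011: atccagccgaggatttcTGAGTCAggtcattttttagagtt
COL6A3 downstream flank, chr2:237304924-237304964: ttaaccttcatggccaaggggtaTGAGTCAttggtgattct

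The 3 had the same 7 letters, TGAGTCA, at 4, 0 and 6 bp from the summit, and had 26, 37 and 26 fragments. The tallest 2 regions of the 34, in COL12A1, had no AP-1 letters in their windows. For each of the other 8 cores the interval of the 34 windows held the share of the list, and CRE letters were in 0 windows against 0.691%. TEAD letters were in 20.6% of the collagen windows against 21.1%, RUNX letters in 17.6% against 17.5% and ETS letters in 35.3% against 27.7%. The GC box was in 1 of 34 windows (2.94%, 0.521% to 14.9%), the one at the COL12A1 start, against 14.6%. Among summits over 3 kb from any annotated start it was in 0 of 24 collagen windows, against 3.15% of the list. AP-1 letters were there in 45.8% of the collagen windows (27.9% to 64.9%), against 50.9%. The median GC content of the windows was 43.5%, against 45.3% in the list.

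**Figure D4:**
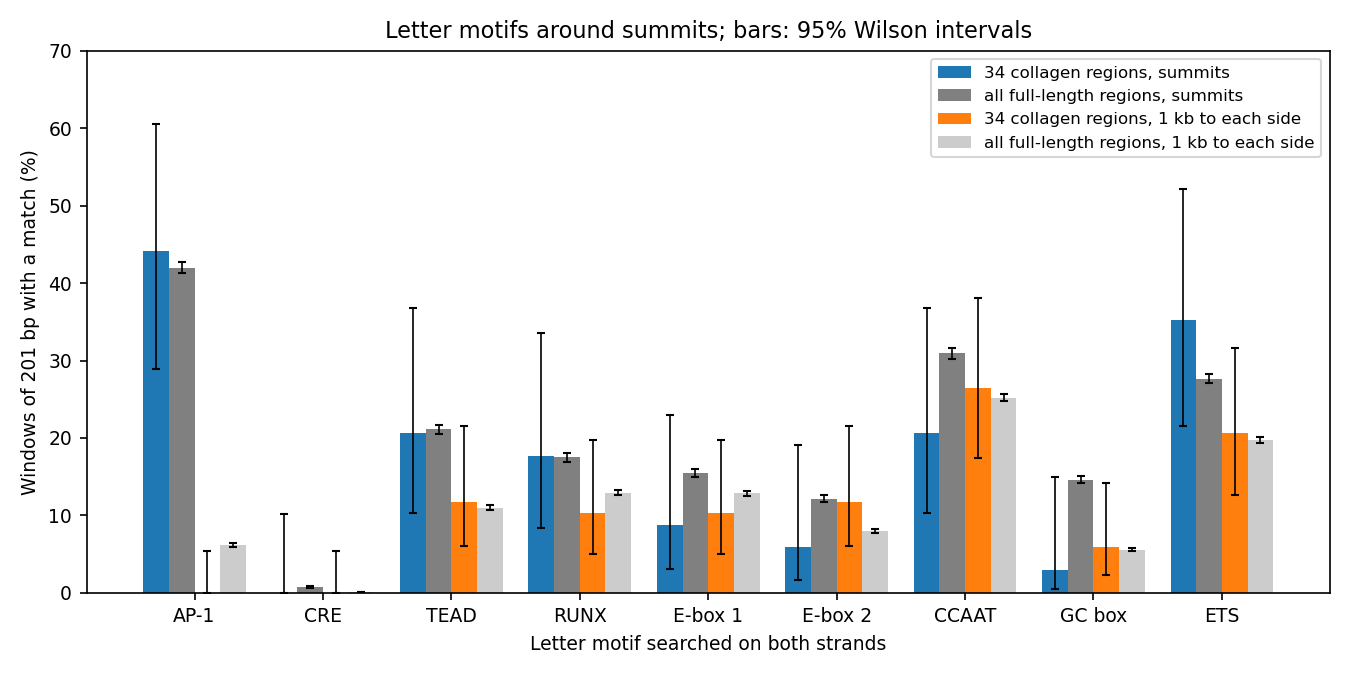
Percent of windows, 100 bp to each side of their centre, that hold each letter core (y axis) for 9 cores (x axis; E-box 1 is CAGATG and E-box 2 is CAGCTG). Blue and dark grey bars are windows around the summits of the 34 collagen regions and of all full-length regions, orange and light grey bars the windows 1 kb to each side of them, and lines are 95% Wilson intervals. AP-1 letters reach 44.1% and 42.0% at the summits and 0% and 6.21% at the sides, and for the other cores the intervals of the 34 regions are wide.

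With dZF no region was in any of the 10 loci. The dZF list held 54 regions in all and 25 protein-coding genes, 0.125%, had one within the same 20-kb limits, so that 0 of 10 genes is no different from the background of so short a list. No dZF region was within 100 kb of these genes either, and the nearest was 3061 kb from COL21A1. The lists differed in depth as well. The lowest background, which follows the fragment density of the pool, was 0.865 with full-length ZNF469 and 0.625 with dZF, which is 1.38 times lower. The part of depth, of protein level and of the line in the absence of dZF regions was not tested.

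The relatives of these chains were read in the same way. Of the 10 FACIT genes 5 had a region in the body, where 33.7% of all protein-coding genes did. COL12A1, COL14A1, COL16A1 and COL21A1 are among these 10 and had been chosen with their counts known. Besides COL12A1, COL16A1 and COL21A1, those with a region were COL9A2, with 1 of 12 fragments, and COL9A3, with 1 of 76 fragments and a fold of 13.4. COL9A1, COL19A1, COL20A1 and COL22A1 had none, like COL14A1. Of the network-forming short chains COL8A2, the partner of COL8A1 in type VIII collagen, had 1 region (20 fragments, fold 7.38) and COL10A1 had 0. With COL6A5 and COL6A6 added, 0 of 5 beaded filament genes had a region in the body, 3 of which had been chosen for that. COL7A1, the anchoring fibril chain, had 1 region of 19 fragments. Over the 44 collagen chains 25 had one in the body, and 19 of the 34 outside the chosen genes, beside the same 33.7%. These counts were not set against genes of like length.

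Enzymes and carriers that make and export collagen had a region in the body in 10 of 15 genes, beside 33.7% of all protein-coding genes. This list and that of partners and receptors were drawn up with earlier results of these data known. The count was not set against genes of like length. P4HA2, a subunit of prolyl 4-hydroxylase, had 5 regions (17 to 32 fragments), and PLOD2, the lysyl hydroxylase of telopeptide cross-links, had 4 (13 to 35). SERPINH1, the collagen chaperone HSP47, had 2 regions (30 and 31 fragments) that covered 5.30% of its 10.7 kb. BMP1, which trims procollagen, had 2 and P3H1, MIA3, PLOD3, P4HA3, P4HB and COLGALT1 had 1 each. PLOD1, CRTAP, PCOLCE, P4HA1 and PPIB had 0.

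Partners and receptors of these collagens had a region in the body in 9 of 12 genes, beside 33.7% of all protein-coding genes. Several are long, with 236.2 kb in ANTXR1, 224.3 kb in ANTXR2 and 171.3 kb in ITGA1, and the count was not set against genes of like length. The integrin chains ITGA2 and ITGA1, which bind collagen at the cell surface, had 5 and 4, and ITGA11 and ITGA10 had 2 and 1. The receptor kinase DDR2 had 3 and DDR1 had 0. ANTXR1 and ANTXR2, receptors with ligands that include type VI collagen, had 3 each. CSPG4 (NG2), a proteoglycan that binds type VI collagen, had 1 region of 43 fragments with a fold of 17.0, above any of the 34. TNXB (tenascin-X) had 2, and the small proteoglycans DCN and BGN had 0.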

How the data were processed

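The data were CUT&RUN libraries of LX-2 cells, 3 per construct, grouped by the labels. The submitters' processing notes name bcl2fastq, Bowtie2 2.3.4.3, MACS2 2.2.5, R 4.2.1, deepTools 3.5.1 and hg38, with parameters not given in the sources used here. The authors deposited 1 pooled list of records per group, with a score that rises as the irreproducible discovery rate falls, a fold enrichment (a ratio), a −log10 p-value and the offset of each summit in bp. Their q-values were not used.

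Pileup and local background were recovered from those values, taking the fold as (pileup + 1)/(background + 1) with a pseudocount of 1 and the p as a Poisson tail, with a tolerance of 0.001, after the step had been tested on simulated data. Records were intersected with GENCODE version 44 genes (overlap of at least 1 bp). Letter searches used hg38. The summit sequence of the tallest COL15A1 region is not reported here. Python 3.11.15, numpy 2.4.6, pandas 2.3.3, scipy 1.17.1, pysam 0.24.0 and matplotlib 3.10.9 were used. The reads per library were not analysed here.

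The genes and lists were chosen with earlier results of these data known. All 10 genes were named, and for each the regions of highest pileup, highest fold and nearest the start, and from the other lists the genes with a region. Alternatives changed the flank, stringency, overlap, window, start or set of genes.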

Additional observations from a re-analysis of the deposited data

How the results depend on the processing

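The 9 results were recomputed under 131 alternatives. Of these 119 stayed within 1.5 times the value given, or within its counting interval, and 12 moved further. A reversal of direction was not looked for. Leaving out COL14A1, COL6A1 or COL6A2, whose loci held no region, could not change the number of regions or their medians.

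Stricter lists held fewer regions by construction. In the upper 50% of records by fold 13 regions stayed in the loci and covered 0.446% of the genes. In the upper 25% by fold 5 regions in 3 genes covered 0.197%, with a median pileup of 38. In the upper 25% by pileup 11 regions covered 0.406%. The share of windows with AP-1 letters was 26.5% in windows of 50 bp to each side of the summit and 64.7% over whole records, which follows their length. The share of summits near a start was 26.5% for any protein-coding start within 3 kb and 2.94% within 1 kb of the outermost start. Every alternative for the median fold, the median background and the dZF count stayed within 1.5 times the value given.

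No paired analysis was possible because the files hold 1 list per construct and nothing per replicate number. For that reason leaving out single libraries could not be run. Depth limits what can be said of genes with 0 regions, most of all the short COL6A1 and COL6A2.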
